A study of Homo sapiens with 2 samples.

Results

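The RNAs described here are the 7SK and 7SL small RNA fragments of A549 cells, a human lung adenocarcinoma line. Members were the entries of type misc_RNA whose GENCODE version 29 gene is a 7SK or 7SL (signal recognition particle RNA) gene or copy, 396 of the 1091 misc_RNA entries and of the 5475 features listed. The table itself held transcript identifiers, and 380 members were named through these and 16 by sequence. For a name by sequence, the entry or the GENCODE transcript had to hold the whole of the other without a mismatch. The members comprised the functional gene RN7SK with 167 copies of 7SK, and the functional genes RN7SL1, RN7SL2 and RN7SL3 with 225 copies of 7SL.

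The 2 groups were A549 cells in DMEM with foetal calf serum held for 24 h at 20% oxygen (normoxia) and at 1.2% oxygen (hypoxia), both otherwise without a named genetic change or agent. Each condition was a single small RNA library, so no difference has a replicate check, and a difference between conditions and a difference between libraries cannot be told apart. The libraries held 6449337 counts in normoxia and 13115226 in hypoxia. Of the epithelial miR-200 family, miR-200b-3p was read at 616 and 711 CPM (counts in every 1e6 counts of its library) and the other 4 members at 16.2 to 92.7 CPM. The blood cell miRNA miR-451a was read at 12.7 and 14.6 CPM and the endothelial miRNA miR-126-3p at 125 and 124 CPM, and miR-223 was not listed. Their part in the values of the 7SK and 7SL RNAs was not tested.

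7SK is an abundant nuclear RNA made by RNA polymerase III. It holds the elongation factor P-TEFb inactive together with HEXIM proteins, and LARP7 and MEPCE guard its ends. 7SL, also a polymerase III product, is the scaffold of the signal recognition particle, which docks ribosomes making secretory and membrane proteins on the endoplasmic reticulum. The human genome carries many retrotransposed copies of both, most regarded as pseudogenes, and 7SL is the ancestor of the Alu repeat. The libraries were size-selected for small RNA inserts, so a count here is a fragment of an RNA and not the intact molecule. In such bulk libraries a change in the number of cells and in the RNA of each cell cannot be told apart, nor can the amount of an RNA and how much of it was broken to a readable size.

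How far a functional gene can be told from its copies depends on the sequence they share, shown here for RN7SK and its most abundant copy, RN7SKP160. In the build hg19 of the deposited table RN7SK was listed at chr6:52860418-52860748 and RN7SKP160 at chr1:173760686-173761025. GENCODE version 29 gives both on the plus strand. The first 300 bases of each are printed 5′ to 3′, and capitals mark bases in runs of 20 or more that the other holds too. Both lie between genes there, that is, they overlap no protein-coding gene and no long non-coding RNA gene of the types used.
RN7SK: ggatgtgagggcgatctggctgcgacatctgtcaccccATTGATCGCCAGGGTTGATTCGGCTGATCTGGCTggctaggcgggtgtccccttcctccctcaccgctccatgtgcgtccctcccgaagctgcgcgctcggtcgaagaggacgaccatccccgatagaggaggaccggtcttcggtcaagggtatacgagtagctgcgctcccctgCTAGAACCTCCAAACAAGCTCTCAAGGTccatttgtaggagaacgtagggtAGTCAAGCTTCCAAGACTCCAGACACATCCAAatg
RN7SKP160: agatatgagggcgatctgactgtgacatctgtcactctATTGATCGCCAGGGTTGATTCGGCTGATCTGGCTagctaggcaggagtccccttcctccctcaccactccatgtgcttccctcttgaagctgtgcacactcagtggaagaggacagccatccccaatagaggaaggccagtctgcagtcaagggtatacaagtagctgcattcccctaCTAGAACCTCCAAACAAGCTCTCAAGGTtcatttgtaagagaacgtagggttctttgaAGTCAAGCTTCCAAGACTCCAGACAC

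The aligned bases of RN7SKP160 covered 89.7% of RN7SK as identical positions, but the differences were scattered, and 14.0% of its 20-base words occurred in RN7SK. The longest shared run, 34 bases, spanned positions 39 to 72 of RN7SK, counted from its first base. This stretch holds 2 of the 3 GATC words in the first 100 bases of RN7SK, at positions 42 and 64 (the other is at 13). GATC, which reads the same on both strands, is GAUC in the RNA, a repeated element of the hairpin at the 5′ end of 7SK that HEXIM contacts. At least 2 such words in the first 100 bases were found in 119 of the 167 7SK copies (71.3%), against 6 of the 225 7SL copies (2.67%) and 27 of 544 other misc_RNA entries of that length or more (4.96%). A match describes the letters of the window only.

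Few bases separate the 3 functional 7SL genes. In hg19 RN7SL1 was listed at chr14:50053298-50053594 on the plus strand, RN7SL2 at chr14:50329271-50329567 and RN7SL3 at chr14:50320336-50320632, both on the minus strand. RN7SL1 differed from RN7SL2 by 4 substitutions and RN7SL3 from RN7SL2 by 11. Of the 278 words of 20 bases in RN7SL1, 37 were in neither other functional 7SL gene and 0 were without a match in some other listed entry. RN7SL2 had 9 words found nowhere else in the table and RN7SL3 had 43. For RN7SK, 0 of 312 words were unique to it. Fragments within the shared words cannot be told apart between these entries by sequence alone. The sources used here do not give how the counting treated them. Among 68 sets of listed entries with identical sequence at different positions and 50 or more normoxia counts in at least 1 entry of the set, 37 had counts within 5% of one another in both libraries, so that near-identical entries are uncertain as separate measurements.

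Together the 396 members received 11097 counts in normoxia and 22607 in hypoxia. This was 0.172% of all counts in both libraries, and 11.0% of the misc_RNA counts in normoxia against 10.6% in hypoxia. The ratio of the shares of all counts, hypoxia over normoxia, was 1.00, with an exact 95% interval of 0.979 to 1.02, and 0.925 (0.904 to 0.947) with edgeR's TMM scaling. All intervals here are exact binomial intervals (Clopper-Pearson for a share, conditional for a ratio) and cover at most counting error. They treat reads as independent molecules, which reads amplified by PCR are not, so they can be too narrow. The same holds if a read was counted at several like entries. The total hid a difference between the families, 7SK being slightly higher in hypoxia by its share of all counts and 7SL lower.

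The 168 7SK entries took 8761 normoxia counts (0.136% of all, interval 0.133 to 0.139) and 18404 hypoxia counts (0.140%, 0.138 to 0.142), a ratio of 1.03 (1.01 to 1.06). Against misc_RNA counts they took 8.66% in both libraries, a ratio of 0.999 (0.974 to 1.03), and with TMM scaling the log2 ratio was -0.068, so the direction for 7SK rests on the scale. The 228 7SL entries took 2336 normoxia counts (0.0362%, 0.0348 to 0.0377) and 4203 hypoxia counts (0.0320%, 0.0311 to 0.0330), a ratio of 0.885 (0.841 to 0.931). Against misc_RNA counts 7SL took 2.31% and 1.98%, a ratio of 0.856 (0.813 to 0.901). The lower share of 7SL in hypoxia had the same direction under every scaling run.

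Within a library no scaling enters. There were 0.267 7SL counts for each 7SK count in normoxia (0.255 to 0.279) and 0.228 in hypoxia (0.221 to 0.236), intervals that do not overlap. For the functional genes alone these values were 0.223 (0.207 to 0.240) and 0.217 (0.205 to 0.228), which do overlap. For the copies alone they were 0.304 (0.286 to 0.322) and 0.237 (0.227 to 0.247). Whether copies and functional genes differ in this was not tested, and the split rests on how fragments common to both were assigned, which is unknown.

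The functional gene RN7SK was the most abundant member in both libraries. It received 4026 counts in normoxia and 7736 in hypoxia, 624 and 590 CPM, a ratio of 0.945 (0.909 to 0.982). Per kilobase of its entry this was 1886 CPM in normoxia and 1782 in hypoxia, against 1053 and 1145 for RN7SKP160 and 437 and 504 for RN7SKP187, the next copy. By share of all counts RN7SK was lower in hypoxia (its ratio was 1.01 when scaled to mature miRNA counts instead) and its 2 leading copies were higher. RN7SKP160 had 2309 and 5104 counts (ratio 1.09, 1.03 to 1.14) and RN7SKP187, listed at chr7:111928678-111929007, had 930 and 2183 (1.15, 1.07 to 1.25). With TMM scaling the intervals of both of these copies included 1, at ratios of 1.00 (0.956 to 1.06) and 1.07 (0.987 to 1.15). RN7SKP187 overlaps an exon of a ZNF277 transcript on the same strand in GENCODE version 29, so its counts and fragments of that transcript cannot be told apart. The same holds for RN7SKP118 (KCTD19), RN7SKP175 (AC067930.1), RN7SKP176 (PLCG2) and RN7SL608P (PAFAH1B1).

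Copies took the larger part of 7SK counts and a larger part in hypoxia. All 167 copies together had 4735 counts in normoxia and 10668 in hypoxia (ratio 1.11, 1.07 to 1.15), and 1.13 (1.08 to 1.18) without RN7SKP160. With TMM scaling these ratios were 1.02 (0.989 to 1.06) and 1.04 (0.993 to 1.09), whose intervals include 1. They made up 54.0% of 7SK counts in normoxia (53.0 to 55.1) and 58.0% in hypoxia (57.2 to 58.7), or 1.18 and 1.38 copy counts for each RN7SK count. The share of RN7SK itself was 46.0% and 42.0%. Since these shares are taken within each library, they do not depend on the scaling, but they do depend on how fragments common to RN7SK and its copies were assigned.

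**Figure D1:**
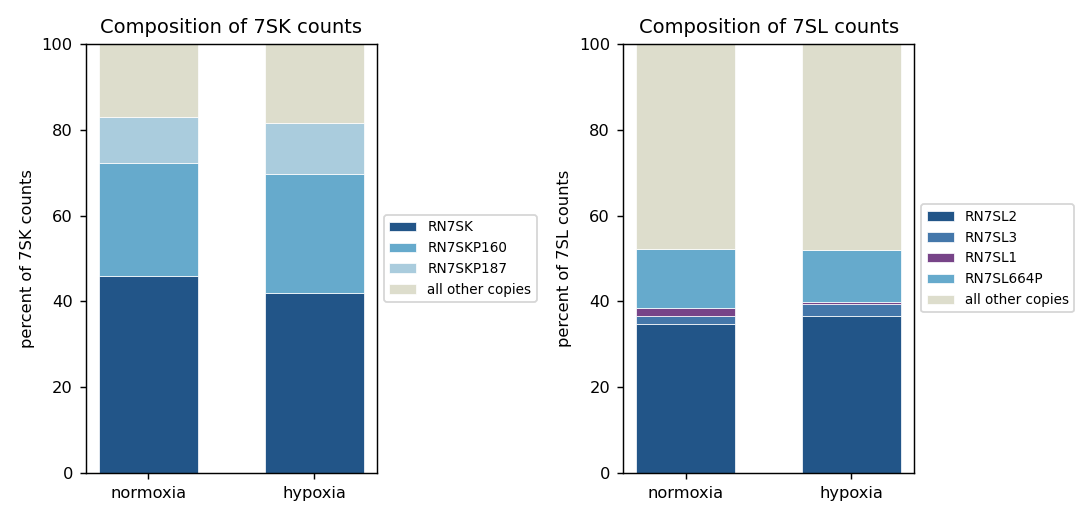
Stacked bars of the percent of 7SK counts (left) and of 7SL counts (right) taken by the functional genes, the leading copies and all other copies in the normoxia and hypoxia libraries, 1 library each. RN7SK takes 46.0% of 7SK counts in normoxia and 42.0% in hypoxia, while RN7SL2 takes 34.8% and 36.5% of 7SL counts.

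The copies of 7SK were very uneven. The 3 with 1000 or more counts over both libraries, RN7SKP160, RN7SKP187 and RN7SKP292, held 75.4% of all copy counts, and 111 of the 167 had under 10 counts (median 6). RN7SKP292 (chr4:6998739-6999055) had 319 counts in normoxia and 769 in hypoxia (ratio 1.19, 1.04 to 1.35, and 1.09, 0.960 to 1.25, with TMM). The next by abundance did not share a direction. RN7SKP118 (225 and 395 counts, ratio 0.863) and RN7SKP175 (165 and 306 counts, ratio 0.912) had lower shares in hypoxia, RN7SKP48 (113 and 259 counts, ratio 1.13) a higher one, and the intervals of these 3 included 1 by total counts. With TMM scaling that of RN7SKP118 lay below 1 (0.797, 0.675 to 0.943). RN7SKP55 was the clearest exception among the abundant 7SK copies, with 82 counts in normoxia and 105 in hypoxia, a ratio of 0.630 (0.467 to 0.851).

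Of the 56 7SK copies with at least 10 counts over both libraries, 42 (75%) had a ratio above that of RN7SK. The same held for 2413 of all 3572 features with as many counts (67.6%), so a copy lying above RN7SK was little more frequent than a listed feature of any kind doing so. The 160 copies that did not pass the expression filter (mean log2 CPM above 3) summed to 592 and 1547 counts, a ratio of 1.29 (1.17 to 1.42), further from 1 than the 7 that passed (1.08, 1.04 to 1.12). With TMM scaling these were 1.19 (1.08 to 1.31) and 1.00 (0.964 to 1.04).

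Grouped by the words they share with RN7SK, the copies sharing most had the highest summed ratio. In 6 copies (RN7SKP176, RN7SKP255, RN7SKP80, RN7SKP71, RN7SKP203 and RN7SKP9) more than 40% of the 20-base words occur in RN7SK, and their counts summed to 141 in normoxia and 448 in hypoxia, a ratio of 1.56 (1.29 to 1.90). RN7SKP176 (chr16:81995531-81995848), which matches RN7SK over positions 1 to 79 without a break, had 39 and 127 counts, a ratio of 1.60 (1.11 to 2.36). RN7SKP255 (chr14:90178855-90179167), which matches positions 60 to 162, had 29 and 111 counts, a ratio of 1.88 (1.24 to 2.94). RN7SKP80 and RN7SKP71, whose unbroken matches span positions 135 to 262 and 88 to 232, had 27 and 73 counts (ratio 1.33) and 22 and 59 counts (ratio 1.32). All 6 ratios lay above that of RN7SK, as did those of 67.6% of all features with at least 10 counts, and the intervals of 4 of the 6 included 1. Grouping by shared words was chosen after earlier values were seen, and the other bins were close to one another, with ratios of 1.03 for the 37 copies sharing no word, 1.10 for the 93 sharing up to 10% and 1.10 for the 31 sharing more than 10% and up to 40%. The same bins of 7SL copies ran the other way, with 0.912 (0.707 to 1.18) for 40 copies, 0.902 (0.830 to 0.982) for 162 and 0.791 (0.705 to 0.888) for 22, intervals that overlap, and the bin above 40% held RN7SL5P alone, with 2 counts in normoxia and 1 in hypoxia.

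**Figure D2:**
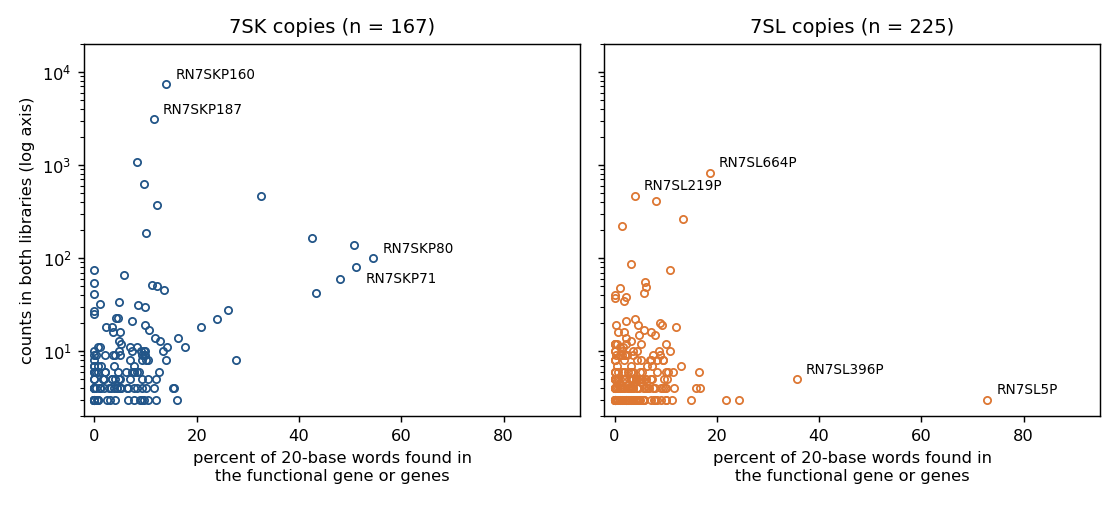
Counts over both libraries (log axis) of each of the 167 7SK copies (left) and 225 7SL copies (right) against the percent of its 20-base words that occur in RN7SK or in RN7SL1, RN7SL2 or RN7SL3. The most abundant copies, RN7SKP160 and RN7SL664P, share 14.0% and 18.7% of their words, and the copy sharing most, RN7SL5P at 72.9%, has 3 counts.

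Counts rose with identity to the functional gene in one family and not in the other. Identity here is the percent of the functional gene's bases matched in the alignment, so it also falls as a copy gets shorter. The 7SK copies were 151 to 375 bases long and the 7SL copies 246 to 330, and the part of length was not tested. Identity to RN7SK ran from 34.7% to 90.3% over the 7SK copies (median 76.1%), and Spearman's rho of counts with identity was 0.547 over the 167 copies. For the 225 7SL copies identity to RN7SL2 ran from 54.9% to 89.2% (median 81.5%) and rho was 0.0731. These are descriptions across copies, which share libraries, depth and stretches of sequence and are not independent replicates.

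Among the functional 7SL genes RN7SL2 carried most of the counts. RN7SL2 received 812 counts in normoxia and 1536 in hypoxia, 126 and 117 CPM, a ratio of 0.930 (0.854 to 1.01) by total counts and 0.859 (0.789 to 0.937) with TMM scaling, so that whether its interval included 1 rested on the scale. RN7SL3 had 41 and 117 counts, 6.36 and 8.92 CPM, a ratio of 1.40 (0.976 to 2.05). RN7SL1 went the other way, with 45 counts in normoxia and 22 in hypoxia, 6.98 and 1.68 CPM, a ratio of 0.240 (0.137 to 0.409). Per kilobase RN7SL2 stood at 424 CPM in normoxia and 394 in hypoxia, far above RN7SL1 at 23.5 and 5.65 and RN7SL3 at 21.4 and 30.0. In normoxia the intervals of RN7SL1 and RN7SL3 overlapped, and in hypoxia RN7SL3 was the higher. Of the functional genes RN7SL1 had the ratio furthest from 1, on few counts and with no 20-base word of its own, and in GENCODE version 29 it lies opposite an intron of RPS29. The sources used here do not say whether the counting used strand.

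The most abundant 7SL copy, RN7SL664P (chr3:48136293-48136595, minus strand, between genes), had 319 counts in normoxia and 506 in hypoxia (ratio 0.780, 0.677 to 0.9002), and made up 13.7% and 12.04% of 7SL counts. Its longest run in common with RN7SL2, 37 bases, spans positions 203 to 239 of RN7SL2. RN7SL219P (150 and 320 counts, ratio 1.05) and RN7SL608P (90 and 172 counts, ratio 0.940) had intervals that included 1. RN7SL310P (chr18:47733370-47733648) was the highest by ratio of the 5 7SL copies past the filter, with 108 and 307 counts and a ratio of 1.40 (1.12 to 1.76). RN7SL727P (chrX:139168014-139168307) was the lowest of these 5, with 98 and 122 counts and a ratio of 0.612 (0.465 to 0.807).

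**Figure D3:**
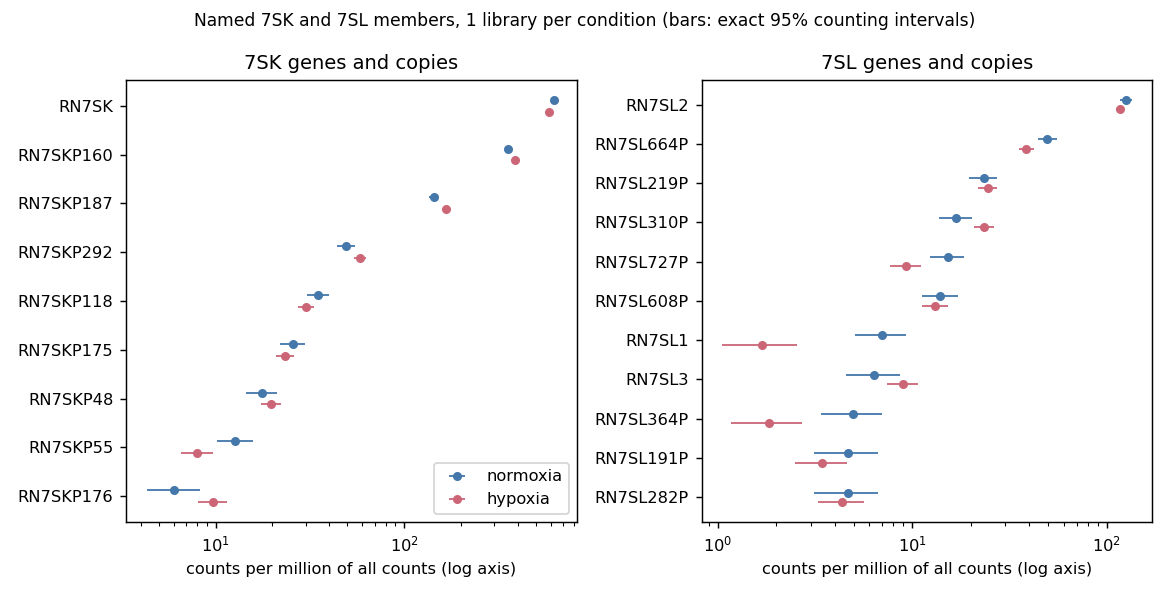
CPM of all counts (log axis) of the named 7SK members (left) and 7SL members (right) in normoxia and hypoxia, with bars for exact 95% counting intervals and 1 library per condition. RN7SK at 624 and 590 CPM and RN7SL2 at 126 and 117 CPM lead their families, and RN7SL1 shows the widest gap between the libraries.

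As a group the 225 7SL copies had 1438 counts in normoxia and 2528 in hypoxia (ratio 0.864, 0.810 to 0.923). They made up 61.6% of 7SL counts in normoxia (59.6 to 63.5) and 60.1% in hypoxia (58.6 to 61.6), shares whose intervals overlap. The 220 copies that did not pass the filter had a ratio of 0.804 (0.730 to 0.887) and the 5 that passed 0.917 (0.840 to 1.003), intervals that overlap. With TMM scaling the latter was 0.847 (0.775 to 0.926). Of the 225 copies among the members, none had 1000 counts, the 5 with at least 100 held 55.3% of copy counts, and 179 had under 10 (median 5). Of the 46 with at least 10 counts, 20 (43.5%) lay above RN7SL2 by ratio, against 69.0% of all features with as many counts. RN7SL364P, the eighth copy by abundance, had 32 and 24 counts (ratio 0.369, 0.208 to 0.646).

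Fewer copies were listed at 0 in the deeper library. In the shallower normoxia library 17 of the 167 7SK copies and 35 of the 225 7SL copies were listed at 0, against 0 and 3 in hypoxia. When the hypoxia library was thinned to the depth of the normoxia library, 12 and 33 copies were at 0. The table lists a feature only from 3 counts over both libraries, so copies below that are not among those counted here.

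By position in GENCODE version 29, 66 of the 7SK copies lie between genes, 46 in an intron on the strand of the gene, 43 in an intron on the opposite strand and 12 over an exon on the same strand. The summed ratios of these classes were 1.09 (1.04 to 1.14), 1.17 (1.04 to 1.31), 1.30 (1.10 to 1.54) and 1.09 (1.02 to 1.16). For 7SL the classes held 97, 90, 35 and 3 copies with ratios of 0.873 (0.802 to 0.951), 0.825 (0.730 to 0.934), 0.928 (0.712 to 1.22) and 0.901 (0.697 to 1.17), the last 2 with intervals that include 1. Within each family the intervals of the position classes overlapped. With TMM scaling 3 of the 4 7SK intervals included 1, the exception being the introns on the opposite strand (interval 1.01 to 1.43). That class had 190 counts in normoxia and 502 in hypoxia. Among them were those of RN7SKP255 (29 and 111), RN7SKP80 (27 and 73) and RN7SKP71 (22 and 59). The same copies belong to the bin sharing most words with RN7SK and to the copies that did not pass the filter. The higher ratios of these sets therefore rest in part on the same counts and are not separate observations.

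None of the members passed the rule of size used to call single features, that is, a mean log2 CPM above 3 and a log2 ratio of 0.9 or more up or down. The filter was passed by 14 of the 396 members (RN7SK, 7 of its copies, RN7SL2 and 5 7SL copies), and 0 were higher and 0 lower. Of all 1639 features past the filter, 148 passed the rule (9.03%), 94 as higher (5.74%) and 54 as lower (3.29%). With the filter left off, 116 of the 396 members passed it, beside a background of 25.2% of all 5475 features, most of them on few counts. The log2 ratios of the 14 members ran from -0.70 for RN7SL727P to 0.48 for RN7SL310P, with a median of -0.09 against 0.13 for all features past the filter. RN7SKP55 was the least abundant member inside the filter (mean log2 CPM 3.36), and RN7SKP176 (2.97) and RN7SL3 (2.95) were the nearest outside it. RN7SL1, with a log2 ratio of -1.93, lay outside at a mean log2 CPM of 1.88.

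The 6 scales used were total counts, misc_RNA counts, mature miRNA counts, TMM, DESeq2 size factors and totals without the 10 most abundant features. The intervals of RN7SKP176 and RN7SL310P lay above 1 under each, and those of RN7SKP55, RN7SL1, RN7SL364P, RN7SL664P and RN7SL727P below 1 under each. For another 7 of the 20 named members (RN7SK, RN7SKP118, RN7SKP160, RN7SKP187, RN7SKP292, RN7SL2 and RN7SL3) the scale decided whether the interval included 1, and for the last 6 it included 1 under each scale. Of all 2226 features with at least 56 counts over both libraries, the count of the least abundant named member, the interval lay above 1 under each scale for 26.9% and below for 15.7%. Of the 26 members with as many counts, named or not, 4 lay above and 5 below. The named members were chosen in part by such intervals, so their own count is a description.

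By total counts the interval of the ratio left out 1 for 20 of the 396 members, 9 above and 11 below. This was 5.05% of the members, beside a background of 27.2% of all listed features (17.2% above and 10.0% below), a share that grows with counts, and most members had few. Among features past the filter the interval left out 1 for 66.6%, and for 8 of the 14 members. A count interval that leaves out 1 is not a test of hypoxia, since it does not hold the spread between cultures.

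**Figure D4:**
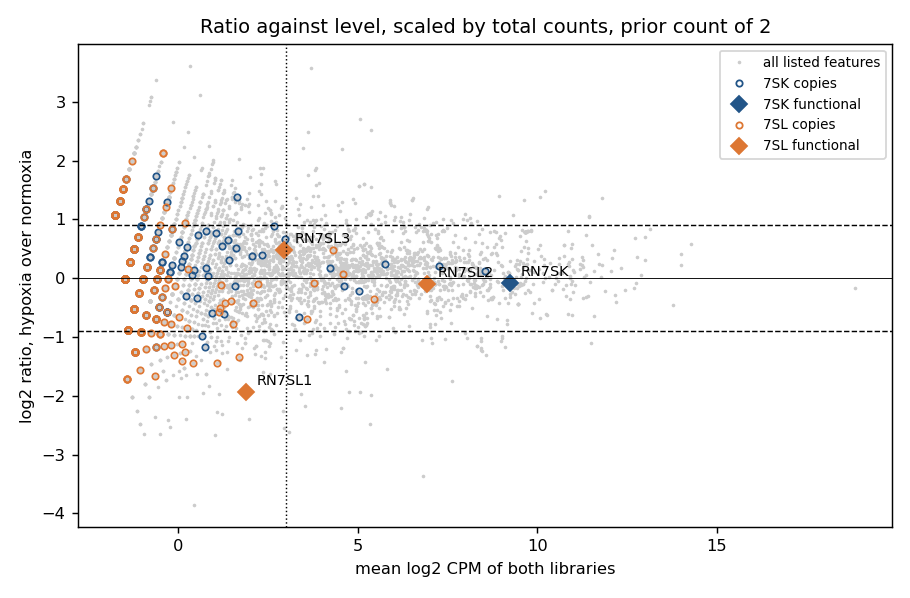
Log2 ratio of hypoxia over normoxia against the mean log2 CPM of both libraries for all 5475 listed features (grey), 7SK members (blue) and 7SL members (orange), with diamonds for functional genes, scaled by total counts with a prior count of 2. The dotted line is the filter at 3 and the dashed lines are log2 ratios of 0.9 and -0.9, and none of the 14 members to the right of the filter lies beyond them.

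Other RNA polymerase III transcripts of the same libraries gave a range of ratios by share of all counts. RMRP, the RNA of the RNase MRP enzyme, had a ratio of 0.934 (0.911 to 0.958) and RPPH1, the RNA of RNase P, 1.12 (1.10 to 1.14). The 4 vault RNA entries summed to 1.61 (1.54 to 1.68), the 409 U6 entries to 2.35 (2.25 to 2.47) and the 21 U6atac entries to 0.644 (0.599 to 0.692). The 655 Y RNA entries, copies included, summed to 1.04 (1.04 to 1.05), but the functional Y genes went both ways, RNY1 and RNY4 at 1.18 each, RNY3 at 0.796 and RNY5 at 0.948. The ratios of 7SK (1.03) and 7SL (0.885) lay inside this range. The counting intervals of U6 and 7SK did not overlap, but with 1 library per condition the difference was not tested across cultures.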

How the data were processed

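Small RNA of A549 cells was sequenced on the SOLiD platform with 1 library for normoxia and 1 for hypoxia, and amplified without molecular identifiers. The authors deposited 1 table of raw counts per feature, not normalized, with the position and sequence of each feature. The submitters' processing notes name the build hg19, and the aligner, the counter and the treatment of reads with several matches are not given in the sources used here. Among the listed features the smallest sum of both libraries was 3 counts.

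Members were named through GENCODE version 29 by transcript identifier or by sequence, where the entry or the transcript held the whole of the other. Strands and locations came from its annotation, with no coordinates carried between builds. Only protein-coding genes and the main types of long non-coding RNA gene were used for locations, so between genes means outside these. Of the 1091 misc_RNA entries, 83 had no name in GENCODE version 29. Of these, 22 were at least 60% identical to RN7SK or RN7SL2 and were not counted as members. The most abundant, ENST00000578588, was 84.8% identical to RN7SL2 and had 134 counts in normoxia and 296 in hypoxia. With the unnamed alike entries added, the 7SL log2 ratio was -0.14 (-0.21 to -0.070). Sequences and words of 20 bases were read from the deposited table, and identities were computed with biopython version 1.88.

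Shares and ratios were scaled by the total counts of 6449337 and 13115226, with exact 95% intervals from scipy version 1.17.1 in Python version 3.11.15. The log2 ratios of single features used log2 CPM with a prior count of 2. With 1 library per condition no test of the condition was made and no p-value is given. TMM scaling used edgeR version 4.0.16, and size factors DESeq2 version 1.42.0, in R version 4.3.3, as alternatives only. The calculation was tested on simulated data. Figures were drawn with matplotlib version 3.10.9.

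The named members were the functional genes, the 8 copies of each family with the highest mean CPM, and among members past the filter the 5 highest and the 5 lowest ratios whose interval left out 1. RN7SKP255, RN7SKP80, RN7SKP71, RN7SKP203, RN7SKP9 and RN7SL5P were named after their values were seen, for the words they share. The members and lists were chosen with earlier results of these data known. The sequences of the 7SL entries are not reported here.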

Additional observations from a re-analysis of the deposited data

How the results depend on the processing

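Scaling decided the direction of the sums that lay near 1. Against total counts, TMM moved every log2 ratio by -0.11, DESeq2 size factors by -0.10, and totals without the 10 most abundant features by -0.11. The 7SK log2 ratio of 0.047 became -0.068, -0.054 and -0.067 with these, -0.0012 against misc_RNA counts and 0.14 against mature miRNA counts. The copies of both families together went from 0.072 to -0.043, -0.029 and -0.042, to 0.024 against misc_RNA and to 0.17 against miRNA counts. The functional genes together went from -0.090 to -0.20, -0.19 and -0.20, and to 0.0048 against miRNA counts. The 7SL log2 ratio of -0.18 kept its direction, at -0.29, -0.28, -0.29 and, against miRNA counts, -0.082. RN7SL219P, whose interval included 1, went from 0.069 to -0.045 with TMM and -0.032 with DESeq2, and RN7SL219P was the only named member to change sign with these. Scaled to mature miRNA counts, the ratios of RN7SK (1.01) and RN7SL608P (1.003) changed side.

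Without the filter on low counts the rule of size was passed by 116 of 396 members (29.3%), 69 higher and 47 lower, against 25.2% of all features. It was passed by 0 members under each other setting run. Over all features the split of 94 higher and 54 lower became 63 and 72 with TMM and 67 and 67 with DESeq2.

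With copies of at least 10 counts only, copies held 57.1% of 7SK counts in hypoxia, and 55.8% (normoxia) and 54.4% (hypoxia) of 7SL counts. With RN7SL3 counted as a copy, copies held 62.9% of 7SL counts in hypoxia. The 7SL to 7SK ratio over functional genes only was 0.223 and 0.217. The additions of unnamed alike entries and the removal of the most abundant copies were chosen after seeing the data, and changed no direction, but without RN7SKP160 the 7SK log2 ratio was 0.020 with an interval of -0.023 to 0.063. No paired analysis was possible because the design held a single library for each oxygen level. What lies behind these shifts was not tested.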
